A study of Homo sapiens with 4 samples.

Results

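A set of 10 endothelial identity genes, PECAM1, CDH5, VWF, KDR, TEK, ERG, FLI1, ENG, EGFL7 and SOX18, was examined in SK-Hep1 cells by ChIP-seq. They were chosen by name, and all 10 were found among 19821 protein-coding genes on the autosomes and X. SK-Hep1 is labelled a human hepatic adenocarcinoma line. Of 3 libraries with a deposited list, 2 profiled H3K27ac, the acetyl mark that histone H3 carries at active regulatory DNA, in cells with a control shRNA (shCon) and in cells with an shRNA against SMARCB1 (shSMARCB1), a subunit of SWI/SNF, the complexes that move and evict nucleosomes. The third library profiled SMARCB1 itself, with no shRNA named in its labels, and a labelled input library was not analysed here. Per the labels, cells that stably expressed an shRNA were kept by puromycin selection, and no label names a second shRNA, a clone or a second culture. Each group had 1 library, so values below come without replicates and the 2 conditions were not tested against each other.

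Endothelial cells line blood vessels, and their identity rests on a small network of transcription factors. ERG and FLI1 are ETS factors that bind GGAA cores in endothelial enhancers, and SOX18 is a SOXF factor of vascular and lymphatic development. CDH5 (VE-cadherin) and PECAM1 (CD31) hold neighbouring cells together. KDR is the main signalling receptor for VEGF, TEK (TIE2) is the angiopoietin receptor, and ENG (endoglin) is a co-receptor for BMP and TGF-beta ligands. VWF is the clotting protein stored in Weibel-Palade bodies, and EGFL7 is a secreted vessel protein whose gene also carries the microRNA miR-126. Many endothelial genes are driven by enhancers inside their introns as well as by the promoter, so the place of the mark within a gene is of interest here.

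A locus was defined as the RefSeq gene record with 20 kb on either side, and its covered length as the base pairs under the H3K27ac peaks of a library. The deposited H3K27ac lists carry no height per peak, so covered length is the only measure of size used. Start sites were listed in the RefSeq promoter table for ENG, KDR, TEK, EGFL7 and ERG. PECAM1, CDH5, VWF, FLI1 and SOX18 had none there, so both ends of their records were used in place of a start. The control library held 13235203 tags and the knockdown library 10203310, which is 1.3 times as many in the control, and peak number and width can depend on depth. The part of this difference in the values below was not tested.

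The mark at the start separated ENG from the other members with a listed start, so its upstream sequence is shown beside those of 4 members without a mark there. Each sequence is the 250 bases before a listed start (GRCh38.p14, RefSeq), 5′ to 3′ on the gene's strand. Capitals mark matches on either strand to AGGAAG, a form of the ETS core. They lie at chr9:127854659-127854908 (minus strand) for ENG, chr9:136662666-136662915 (plus) for the second listed start of EGFL7, the one nearer its peak inside the gene, chr21:38660668-38660917 (minus) for ERG, chr4:55125596-55125845 (minus) for KDR and chr9:27108975-27109224 (plus) for TEK.
ENG: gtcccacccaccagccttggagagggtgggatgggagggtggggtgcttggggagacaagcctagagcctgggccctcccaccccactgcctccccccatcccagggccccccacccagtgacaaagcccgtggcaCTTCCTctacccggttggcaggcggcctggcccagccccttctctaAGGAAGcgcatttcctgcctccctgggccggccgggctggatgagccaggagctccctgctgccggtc
EGFL7: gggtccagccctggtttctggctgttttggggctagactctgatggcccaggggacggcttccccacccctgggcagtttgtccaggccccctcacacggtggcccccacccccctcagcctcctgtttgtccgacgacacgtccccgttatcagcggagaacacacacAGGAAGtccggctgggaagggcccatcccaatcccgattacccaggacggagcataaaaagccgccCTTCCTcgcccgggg
ERG: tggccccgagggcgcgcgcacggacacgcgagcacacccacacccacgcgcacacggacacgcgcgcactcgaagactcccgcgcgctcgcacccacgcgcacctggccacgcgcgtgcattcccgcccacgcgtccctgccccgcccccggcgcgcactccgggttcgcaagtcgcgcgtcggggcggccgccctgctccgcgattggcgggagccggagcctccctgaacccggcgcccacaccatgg
KDR: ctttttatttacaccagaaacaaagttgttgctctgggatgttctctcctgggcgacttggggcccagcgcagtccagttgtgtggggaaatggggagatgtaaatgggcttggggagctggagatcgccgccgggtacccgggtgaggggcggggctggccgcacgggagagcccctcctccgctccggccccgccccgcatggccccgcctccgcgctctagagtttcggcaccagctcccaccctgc
TEK: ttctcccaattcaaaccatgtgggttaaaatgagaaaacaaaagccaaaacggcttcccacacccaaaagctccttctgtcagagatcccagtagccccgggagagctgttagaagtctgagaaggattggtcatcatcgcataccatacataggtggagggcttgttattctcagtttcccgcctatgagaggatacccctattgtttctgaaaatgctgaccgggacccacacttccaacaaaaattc

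ENG and KDR have 1 listed start each, TEK and EGFL7 have 2 and ERG has 4, so these are 5 of 10 listed-start windows. For TEK and ERG the outermost start is shown, a choice made with the values known. H3K27ac of both libraries covered all 250 bases at ENG and 0 bases of the other 9 windows. AGGAAG was found at 2 positions in the ENG window, at 2 and 1 in the EGFL7 windows and once in each of the ERG windows at starts 38498477 and 38498504, which overlap. The other 2 ERG windows, KDR and both TEK windows did not hold it, while 28.7% of 35116 RefSeq windows of this length did. A second ETS form, CCGGAA, was in none of the 10 windows and in 14.5% of all. The core bound by SOX factors, AACAAT, was found once in the TEK window shown and once in each of the same 2 ERG windows (8.98% of all windows hold it). The core of the GATA family, written AGATAA (9.17% of all windows), was found once in each of these 2 ERG windows and once in the TEK window at start 27109450. The AP-1 site, written TGANTCA (6.57%), was in none of the 10. CpG content differed between starts of 1 gene as well as between genes. The ERG window shown had 44 CpG dinucleotides and the other 3 had 3, 3 and 2, the TEK windows had 5 and 1, the EGFL7 windows 13 and 14, KDR 17 and ENG 7, against a median of 11 over all windows. The acetylated window, at ENG, thus lay within the range of the unmarked ones. These matches describe letters only and are not binding sites.

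Most members carried H3K27ac somewhere in the locus, but few carried it at the start. In the control, 7 of 10 members had a peak in the locus (80.5% of all protein-coding genes did), and in the knockdown 8 of 10 (79.7%). Within 1 kb of a listed start, or of a record end where no start was listed, H3K27ac was found at ENG and SOX18 only, which is 2 of 10 in the control against 63.7% of all genes, and the same 2 of 10 in the knockdown against 62.5%. A start was listed for 5 of the 10 and for 79.8% of all genes, so the 2 counts rest on differently known starts, and a start inside a record with no listed start is missed. Within 2.5 kb of a listed start or record end the count was 4 in each library, against 65.6% of all genes in the control and 64.4% in the knockdown. EGFL7 was added at a listed start and CDH5 at the higher end of its record, which is not known here to be its start. CDH5, VWF, ERG, FLI1 and EGFL7 were acetylated in both libraries with no peak at a start or end in either, a pattern shown by 5 of 10 members and by 15.1% of all genes. The members' loci were long, with a median of 99280 bp against 64482 bp over all genes, and a longer locus has more room for a distant peak. Summed over the 10 loci, 63.5% of the 68512 bp covered in the control lay in gene records away from the start, 30.7% in the flanks and 5.84% at a start. In the knockdown the shares of 67360 bp were 66.2%, 29.7% and 4.15%.

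**Figure D1:**
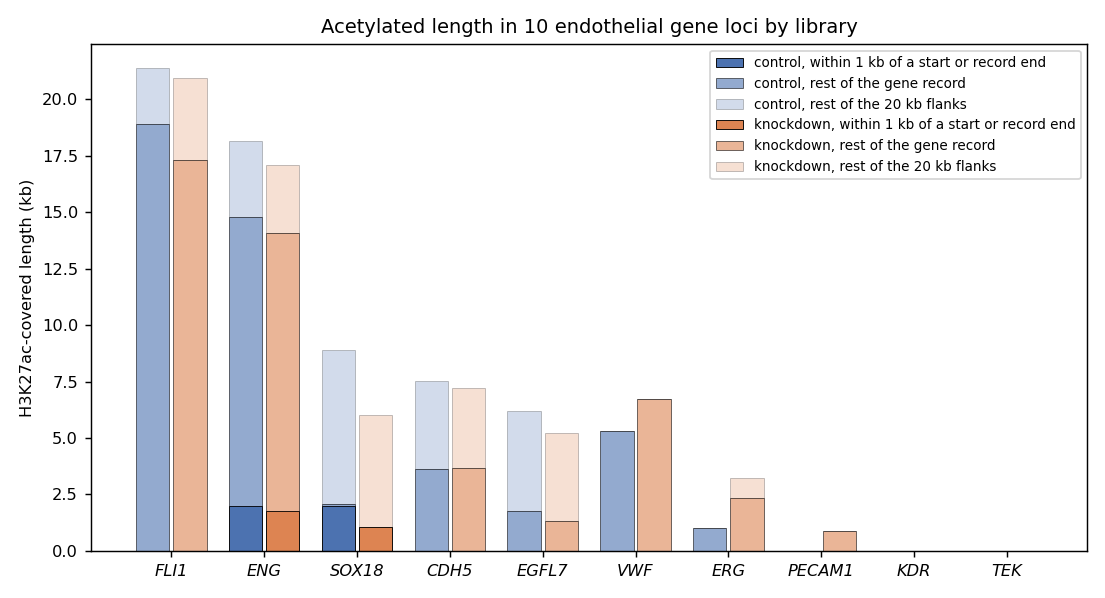
Bars give H3K27ac-covered length in kb in each gene record with 20 kb flanks, in the control (blue) and knockdown (orange) library, split into the part within 1 kb of a listed start (or record end where none is listed), the rest of the gene record and the rest of the flanks. FLI1 and ENG are the most covered at 21378 and 18150 bp in the control, the start part is present only at ENG and SOX18, and KDR and TEK have no bar in either library.

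Among the transcription factor genes of the set, FLI1 had the longest covered length. FLI1 (chromosome 11, 128685132 to 128813267) had 21378 bp covered in control cells and 20951 bp in knockdown cells, 12.7% and 12.5% of its locus. Its control length was higher than that of 97.2% of all protein-coding genes, in a locus of 168136 bp against a median of 64482 bp over all genes. Of its 7 control peaks, 5 lay inside the gene record and 2 beyond its higher end, and the knockdown had 6 peaks, 5 of them inside. The peak nearest the lower end, chr11:128691947-128696175 in the control, began 6815 bp from that end and was 4229 bp wide, and it was 4599 bp wide in the knockdown. It held a SMARCB1 peak that the authors classed as promoter-TSS, though the class comes with no gene name. If that class also counts as a start, FLI1 is the third member with H3K27ac at one, in both libraries. The other peaks inside the gene were 4992, 3511, 3405 and 2756 bp wide in control cells and 4789, 2227, 3770 and 1924 bp in knockdown cells. Of these the second and the last narrowed most and the third was wider, while the 2 peaks beyond the gene, of 1032 and 1453 bp, were covered by 1 peak of 3642 bp in the knockdown.

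ERG, the other ETS factor, carried little H3K27ac for its size. ERG (chromosome 21, 38367261 to 38661783) had 1034 bp covered in control cells and 3234 bp in knockdown cells, 0.309% and 0.967% of its locus. The shared peak, chr21:38440245-38441278 in the control, lay inside the record, 57199 bp from the nearest of 4 listed starts. It was 1034 bp wide in control cells and 1720 bp in knockdown cells. Another 2 peaks were found in the knockdown only, 636 bp wide inside the gene, at 14359 bp from a listed start, and 878 bp wide in the flank. None of the 4 listed starts of ERG was marked in either library.

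SOX18 had the opposite layout, with peaks on and around a short gene. SOX18 (chromosome 20, 64047582 to 64049639) is 2058 bp long and had 8910 bp covered in its locus in control cells and 6027 bp in knockdown cells. That was 21.2% and 14.3% of the locus, a larger share than at FLI1 in both libraries. The peak across the higher end of the record, chr20:64048581-64050672 in the control, was 2092 bp wide in control cells and 1044 bp in knockdown cells. The remaining peaks, 6 in the control and 4 in the knockdown, were all in the flanks. Of the control flank peaks, 3 overlapped the record of TCEA2 and 1 that of C20orf204, so part of the length belongs to ground shared with neighbouring genes. With stretches in other gene records left out, 4636 bp remained in control cells and 2785 bp in knockdown cells.

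**Figure D2:**
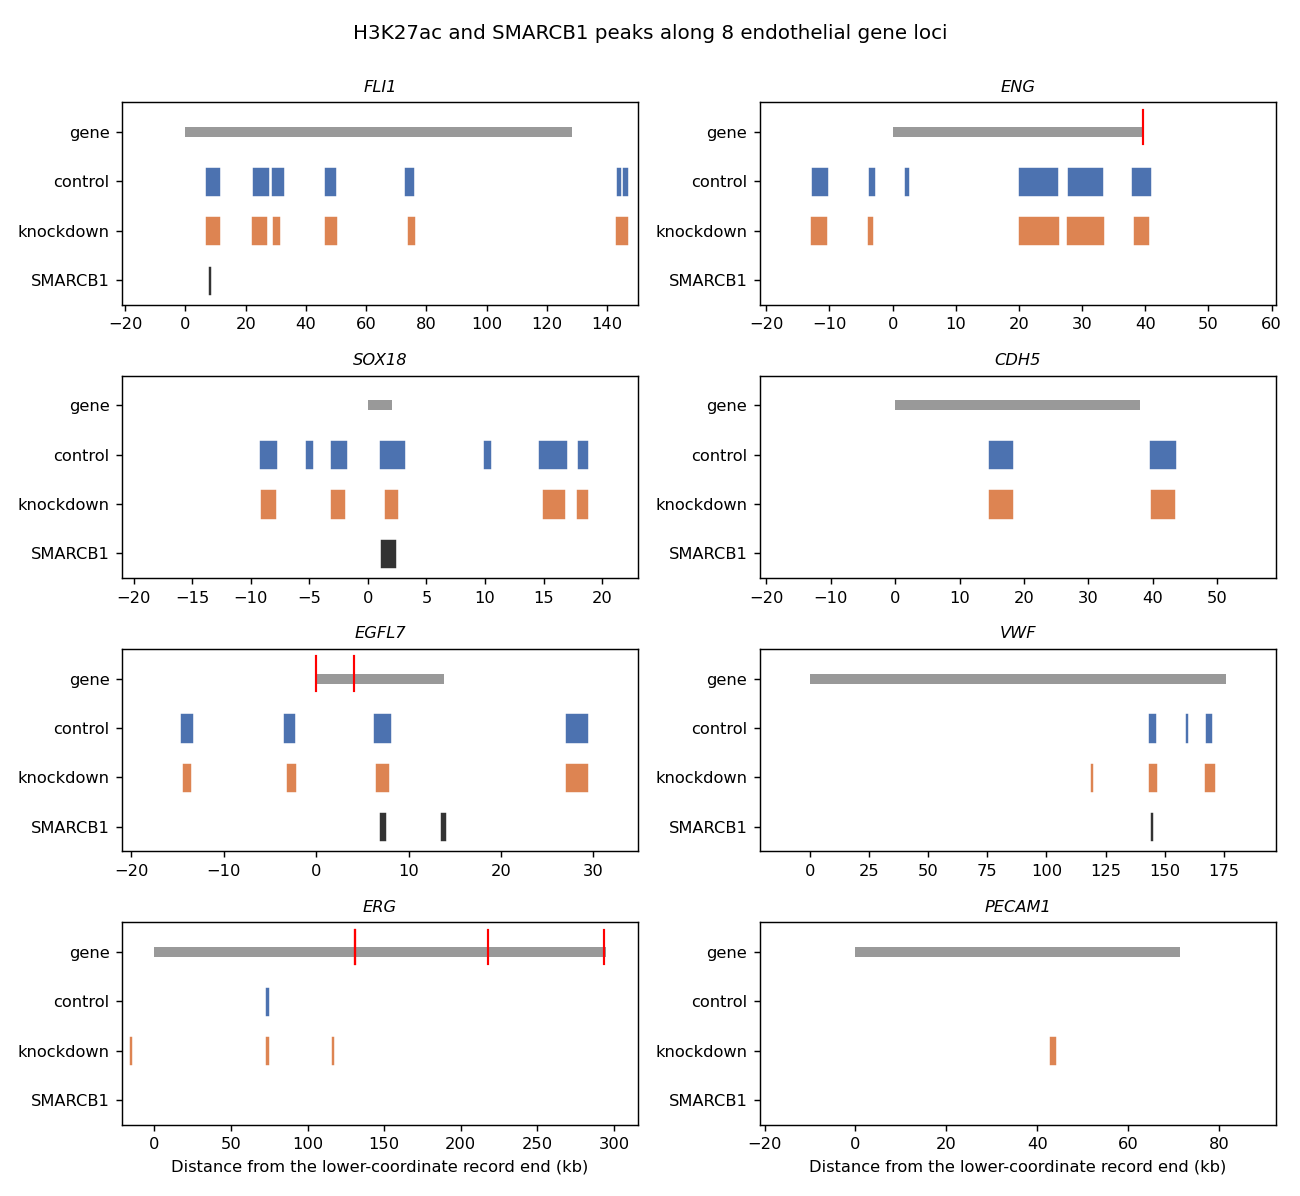
Each panel draws 1 locus, with distance from the lower-coordinate end of the gene record in kb on the horizontal axis, the record as a grey bar, listed starts as red ticks and peaks as blocks for the control, the knockdown and SMARCB1. The blocks of FLI1, CDH5 and VWF lie inside or beyond the genes and off the record ends, and those of ENG include its start. Narrow knockdown blocks with no matching control block stand at PECAM1, VWF and ERG.

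Of the junction and surface genes, ENG was acetylated from its start into its body. ENG (chromosome 9, 127815016 to 127854658) had 18150 bp covered in control cells and 17103 bp in knockdown cells, or 22.8% and 21.5% of the locus. The start peak was 2823 bp wide in control cells and 2182 bp in knockdown cells. The 2 widest member peaks of both libraries lay inside ENG, at chr9:127834960-127841003 and chr9:127842712-127848227 in the control, 13655 and 6431 bp from the start. They were 6044 and 5516 bp wide in control cells and 6167 and 5733 bp in knockdown cells, wider than 95.1% and 94.1% of all control peaks and 96.3% and 95.7% of all knockdown peaks. The body peaks were thus about as wide in both libraries, and the start peak was narrower in the knockdown. The 2 shared flank peaks of ENG overlapped FPGS, and the ENG record held 1 more peak of 501 bp in the control only.

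CDH5 was marked in the gene and just beyond it, and the values were close in both libraries. CDH5 (chromosome 16, 66366691 to 66404784) had 7517 bp covered in control cells and 7197 bp in knockdown cells. The peak inside the record, chr16:66381253-66384893, was 3641 bp wide in control cells and 3655 bp in knockdown cells, and 14562 and 19891 bp from the record's lower and higher ends in the control. The second peak began 1521 bp past the higher end and was 3876 bp wide in control cells and 3542 bp in knockdown cells. Neither peak overlapped another protein-coding gene record. PECAM1 (chromosome 17, 64319415 to 64390860) had 0 bp in control cells and 900 bp in knockdown cells, from 1 peak inside the record, chr17:64362319-64363218. That peak lay 27642 bp from the nearer record end and was narrower than the knockdown list's median of 1601 bp.

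The 2 receptor kinase genes were the members with no peak in the locus in either library. That is 2 of 10 members, close to the 18.5% of all protein-coding genes that had none. KDR (chromosome 4, 55078481 to 55125595) and TEK (chromosome 9, 27109225 to 27230174) had 0 bp covered in both libraries and no SMARCB1 peak. With flanks of 50 kb KDR had 3570 bp in control cells and 3340 bp in knockdown cells, and TEK still had 0 bp in both. A locus with no peak is one in which no region passed the authors' threshold at this depth, which does not show that the mark was absent.

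The genes of the secreted proteins were marked off the start, VWF inside the gene and EGFL7 mostly in the flanks of 20 kb. VWF (chromosome 12, 5948877 to 6124670) had 5320 bp covered in control cells and 6706 bp in knockdown cells. All of it lay inside the record, towards the higher end. The shared peaks of VWF were 2623 and 2196 bp wide in control cells and 2618 and 3587 bp in knockdown cells, so 1 kept its width and the other, 6323 bp from the higher end in the control, widened. Another VWF peak of 501 bp was found in each library alone, at different positions.

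EGFL7 (chromosome 9, 136658856 to 136672678) had 6203 bp covered in control cells and 5242 bp in knockdown cells, from 4 peaks in each library that overlapped pairwise. The 1 inside the record, chr9:136665068-136666834 in the control, was 1767 bp wide in control cells and 1310 bp in knockdown cells. It lay downstream of both listed starts, 2152 bp from the second in control cells and 2421 bp in knockdown cells. Another peak ended 2384 bp before the first start in the control, and the widest, of 2274 bp, overlapped AGPAT2. With flanks of 10 kb the locus had 2813 bp in control cells and 2238 bp in knockdown cells. Most of that length was the peak inside the record, so the larger share in the flanks depended on the flank chosen. The miR-126 hairpin (chr9:136670602-136670686, plus strand) sits inside the EGFL7 record and was under no peak, 3768 bp from the nearest control peak, 3956 bp from the nearest knockdown peak and 1641 bp from the nearest SMARCB1 peak. The 2 mature arms of this endothelial microRNA are shown because EGFL7 carries them, with the seed, bases 2 to 8, in capitals (RefSeq, GRCh38.p14).
hsa-miR-126-5p: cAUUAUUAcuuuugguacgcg
hsa-miR-126-3p: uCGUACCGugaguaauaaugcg

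The comparison of the libraries asked how H3K27ac at these genes differed with the shRNA against SMARCB1. Covered length was lower in the knockdown at 5 of the 8 members with a peak in either library, SOX18, EGFL7, ENG, CDH5 and FLI1, against 77.0% of 16162 such genes overall. It was higher at VWF, ERG and PECAM1. The log2 ratio of knockdown to control, with 500 bp added to each length, was −0.53 at SOX18, −0.22 at EGFL7, −0.08 at ENG, −0.06 at CDH5, −0.03 at FLI1, 0.31 at VWF, 1.28 at ERG and 1.49 at PECAM1. The median of these 8 was −0.04, and the median over all 16162 genes was −0.16. None of the 8 was more than 1.5-fold lower (7.78% of all genes were), and ERG and PECAM1 were more than 1.5-fold higher (2.87% of all genes were). Both had at most 1034 bp in the control. The PECAM1 value rested on 1 peak of 900 bp, and the ERG value on the widening of the shared peak from 1034 to 1720 bp and on 2 further peaks of 878 and 636 bp. When only peaks of at least 1000 bp were kept, no member was more than 1.5-fold higher by this ratio. ERG then had 1034 and 1720 bp and a log2 ratio of 0.53 with the 500 bp added, and PECAM1 had 0 bp in both. Under the same setting EGFL7 was more than 1.5-fold lower, with 6203 and 3528 bp and a log2 ratio of −0.73. That value rested on the cut itself. The 2 shared EGFL7 flank peaks of 1116 and 1046 bp in control cells were 786 and 928 bp in knockdown cells, so only the knockdown lost them. SOX18 passed 1.5-fold lower with flanks of 10 kb (log2 ratio −0.72) and with other gene records left out (−0.64).

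**Figure D3:**
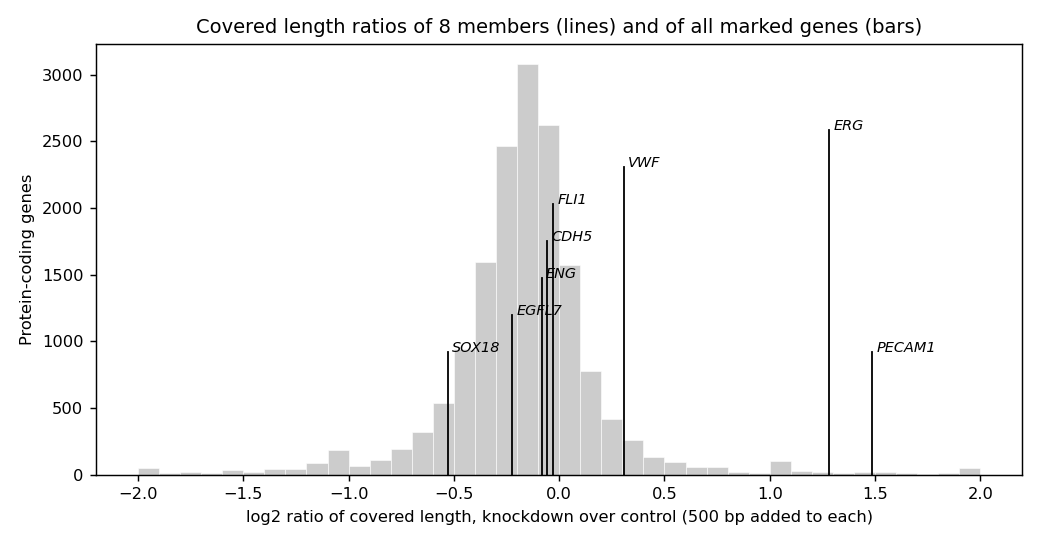
Grey bars count protein-coding genes by the log2 ratio of covered length, knockdown over control, with 500 bp added to each, and genes beyond 2 in either direction are in the outermost bars. Black lines place the 8 members with a peak in either library, whose heights carry no meaning. FLI1, CDH5, ENG and EGFL7 lie in the bulk of the genes at −0.03 to −0.22, SOX18 at −0.53 and ERG and PECAM1 out at 1.28 and 1.49.

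Peak by peak, the member loci held 30 control peaks and 29 knockdown peaks. Without a counterpart in the other library were 4 of the 30 (17.7% of all control peaks) and 4 of the 29 (12.2% of all knockdown peaks). The 4 control-only peaks, at ENG, VWF and 2 at SOX18, were all 501 bp wide, the narrowest width in the list, and the 4 knockdown-only peaks, at PECAM1, VWF and 2 at ERG, were 501 to 900 bp wide. Peaks with a counterpart had median widths of 2297 bp in control cells and 2218 bp in knockdown cells. Among 24 pairs in which 1 control peak met 1 knockdown peak, 16 were narrower in the knockdown, and 69.6% of 27345 such pairs were genome-wide. The median width ratio of the 24 was 0.937, with a range of 0.499 at the SOX18 end peak to 1.66 at ERG, against a median of 0.913 genome-wide. In both counts the members lay near the genome as a whole.

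**Figure D4:**
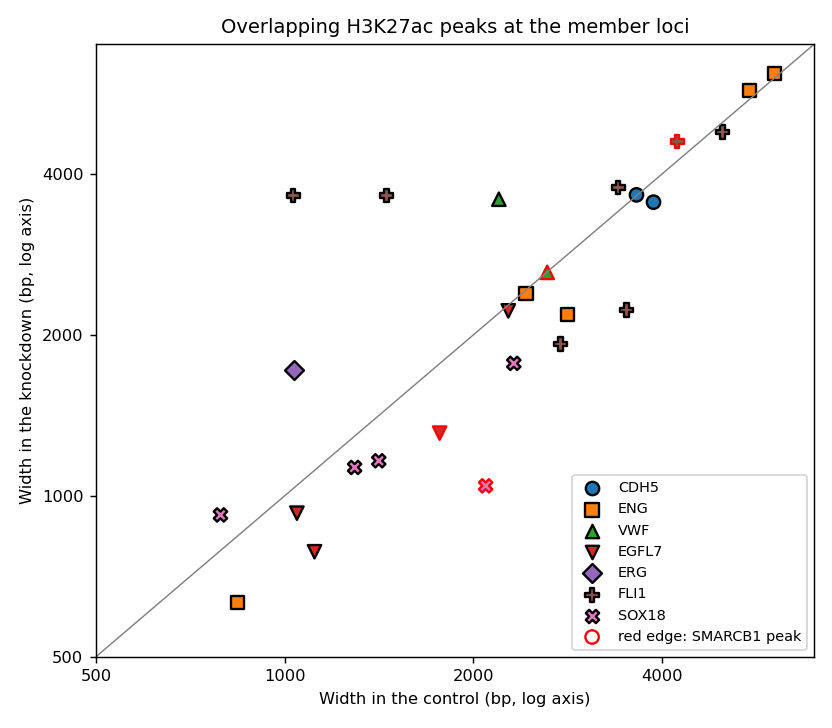
Each point is a control peak and an overlapping knockdown peak at a member locus, with the width in the control and in the knockdown in bp on log axes, 1 marker shape per gene, a red edge where a SMARCB1 peak lies on the control peak and a grey line at equal widths. Most points lie close to or below the line, the SOX18 end peak is the farthest below it, and the 2 FLI1 points far above it share 1 knockdown peak of 3642 bp.

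SMARCB1 peaks lay in 4 of the 10 loci, at VWF, FLI1, EGFL7 and SOX18, against 28.2% of all genes. The widest and highest was at SOX18, chr20:64048704-64049867, 1164 bp wide with an authors' value of 25.4, classed as exon. That number has no stated unit and is used to place a peak in its list, where it ranked 293 of 4453. The 2 SMARCB1 peaks of EGFL7 had values of 14.8 (intron) and 9.51 (TTS), the FLI1 peak 10.6 (promoter-TSS) and the VWF peak 9.51 (intron), against a list median of 11.6. The FLI1 and VWF peaks thus lay below the median, and 2 members, EGFL7 and SOX18, had a peak above it. At VWF, FLI1 and EGFL7 each SMARCB1 peak was 500 bp wide.

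All but 1 of these 5 SMARCB1 peaks lay on H3K27ac of both libraries. The exception was the EGFL7 peak at the record's higher end, chr9:136672327-136672826, which had 0 bp of H3K27ac under it in either library. The share of the whole SMARCB1 list that lies on H3K27ac is not given here, so this count is not read as particular to these genes. The SOX18 peak was under control H3K27ac for all 1164 bp and under knockdown H3K27ac for 864 bp. The acetylated peaks with SMARCB1 on them had width ratios, knockdown to control, of 0.499 at SOX18, 0.741 at EGFL7, 0.998 at VWF and 1.09 at FLI1. The other 20 pairs had a median ratio of 0.937 and ranged from 0.634 to 1.66. The 4 ratios with SMARCB1 thus ran from the lowest of all to a slight gain, and the part of SMARCB1 binding in them was not tested.

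Other endothelial genes were read in 5 lists by role, 96 genes in all. The mark was at the start in both libraries for 63 of 96 (65.6%; 61.7% of all genes) and away from the start only for 14, where the 10 identity genes had 2 and 6. It was at the start in 1 library only for 3, namely DLL4, an endothelial Notch ligand, and GATA6 in the control and ESM1 in the knockdown. Another 16 had no peak in the locus (18.5% of all genes had none). Of 30 transcription factors, 24 were marked at the start in both. ETS1, another ETS factor, had 36340 bp in control cells and 29702 bp in knockdown cells, NR2F2, a factor of venous identity, 31802 and 29434 bp, and ELK3 20375 and 14422 bp. The same held for 17 of 22 secreted proteins and enzymes, led by COL4A2, a basement membrane collagen, with 40585 and 43649 bp, and BMPER with 37515 and 28802 bp.

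Of 12 growth factor and peptide receptors, 6 were marked at the start in both libraries, led by NRP1, a VEGF co-receptor, with 35934 bp in control cells and 33591 bp in knockdown cells, EPHB4 with 11456 and 8790 bp and NRP2 with 6743 and 5826 bp. Of the relatives of KDR and TEK on that list, FLT1 and TIE1 had no peak in the locus, and FLT4, another VEGF receptor, had 501 and 626 bp away from the start. These 3 were picked out after their values were seen. Of 26 junction and surface genes 12 were marked at the start in both, with CAV1 (32513 and 26423 bp), GPR4 (18532 and 14305 bp) and PROCR (12604 and 11601 bp) the most covered. Of 6 Notch genes 4 were, and DLL4 had 9110 bp in control cells and 5187 bp in knockdown cells. Like CDH5 and VWF, the genes NOTCH4 (14128 and 11730 bp), RAMP2 (8775 and 9240 bp) and PLVAP (7612 and 5211 bp) were acetylated off the start only. The CDH5 and VWF peaks overlapped no other protein-coding gene record. Lengths of the list genes include the 20 kb flanks, with neighbouring gene records not left out. Part of them may thus lie on neighbouring genes, which was not examined. Like KDR and TEK, the genes ACE, ACVRL1 and AQP1 had no peak. Over the 80 of 96 genes with a peak in either library, 62 were lower and 18 higher in the knockdown, while 77.0% of all such genes were lower. The median log2 ratio of the 80 was −0.25 (−0.16 over all genes).

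**Figure D5:**
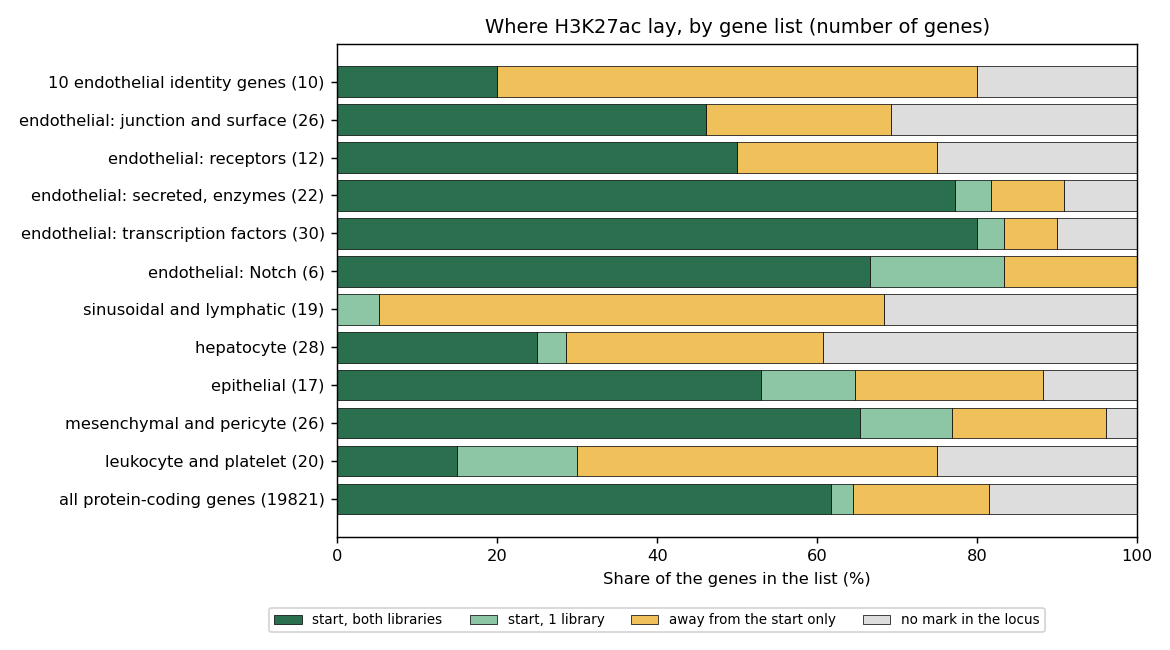
Bars give, for each gene list, the share of its genes in % with H3K27ac at the start in both libraries, at the start in 1 library, in the locus away from the start only, or nowhere in the locus. The 10 endothelial identity genes have 2 genes in the first class and 6 in the third, and all protein-coding genes have 61.7% and 17.1%.

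Markers of other cell types were read against the label. Of 28 hepatocyte genes, 7 were marked at the start in both libraries, and ALB, TTR and HNF4A, picked out after their values were seen, had no peak in the locus. FOXA2 was marked at the start in the knockdown only, with 0 bp in control cells and 1002 bp in knockdown cells, and the most covered hepatocyte genes were SERPINA1 (7009 and 7264 bp) and FOXA3 (5983 and 5549 bp). Mesenchymal genes were marked at the start in both for 17 of 26 (65.4%), close to the share of all genes. Among them were SPARC with 35106 and 29966 bp and VIM with 22135 and 19351 bp. Epithelial genes were marked at the start in both for 9 of 17 (52.9%), with KRT8 at 32789 and 25002 bp. Leukocyte and platelet genes were so for 3 of 20 (15.0%). PTPRC, the leukocyte antigen CD45, had 23940 bp in control cells and 21489 bp in knockdown cells, all of it off the start. The targeted gene, SMARCB1, was marked at its start in both libraries, with 14098 bp in control cells and 12790 bp in knockdown cells covered in its locus, which does not check the knockdown, since an shRNA acts on the transcript.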

How the data were processed

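H3K27ac was profiled in 1 control and 1 knockdown library and SMARCB1 in 1, all by paired-end ChIP-seq. Reads were processed with Bowtie2 and HOMER on hg38, per the submitters' processing notes, which give no versions. Per the file headers, the H3K27ac lists are HOMER histone-style peaks (peak size 500 bp, minimum distance 1000 bp, 4.00-fold over input and over local background), both called against the control input, with 53.78% of control and 55.07% of knockdown tags in peaks. The score column deposited in them is 1 for every peak and was not used. The deposited SMARCB1 list gives a number of unstated unit and a position class, and no source used here names its peak caller.

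Covered length was computed from peak positions with Python 3.11.15, NumPy 2.4.6 and pandas 2.3.3, and overlaps (at least 1 base) were checked with bedtools 2.31.1 and on simulated data. Peaks off the autosomes and X were left out (3 in each H3K27ac list), as were 153 gene records. Of 19821 genes, 79.8% had a listed start. Log2 ratios used 500 bp added to each length. With 1 library per group, no test was run. The members and lists were chosen with earlier results of these data known. From each list the text names the 3 genes with the longest covered length in the control, genes marked at the start in 1 library, and up to 3 that share a member's pattern. A result under this rule is not reported here. Flank, start window, peak width, added length, merging and neighbouring records were varied.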

Additional observations from a re-analysis of the deposited data

How the results depend on the processing

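Across the alternatives, 67 of 88 recomputed values stayed within the range set for them and 21 moved. The range was a factor of 1.5, or 0.1 for the median log2 ratio, so a count that went from 2 to 3 stayed within it. A change of direction could be scored only for the median log2 ratio and for member differences other than 0, and none of these changed direction. With a window of 2.5 kb, 4 members were marked at a listed start or record end in each library (EGFL7 added at a listed start and CDH5 at a record end), and 3 were marked only away from these in both. More than 1.5-fold lower in the knockdown was 1 member with flanks of 10 kb (SOX18), 1 with only peaks of at least 1000 bp (EGFL7) and 1 with other gene records left out (SOX18). At EGFL7 that width cut removed shared peaks from the knockdown only. More than 1.5-fold higher was 0 with only peaks of at least 1000 bp. Of the SMARCB1 list above the median, 2 members had a peak. Of the 40 recomputed differences of single members 13 moved, for instance EGFL7 to −2675 bp with only peaks of at least 1000 bp and FLI1 to −1584 bp with flanks of 10 kb. The start-window alternative for the away-only count, its flank and width alternatives, the promoter-TSS class and the SMARCB1 peaks on shared H3K27ac were added after seeing the data. No paired analysis was possible because each group had 1 library and no test was run. For the same reason no library could be left out. Depth limits what a locus without a peak can show, and peak width says nothing of signal height.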

Other observations

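Most of a list of 19 genes of liver sinusoidal and lymphatic endothelium, like most of the 10 identity genes, were acetylated away from the start only. None was marked at the start in both libraries, 1 was in the knockdown only, 12 were acetylated away from the start only and 6 had no peak in the locus. Over all protein-coding genes 61.7% were marked at the start in both, 17.1% away from the start only and 18.5% had no peak. The most covered were CRHBP with 8624 bp in control cells and 8183 bp in knockdown cells, MRC1, the mannose receptor, with 7358 and 4792 bp, and FCN3 with 5708 and 4265 bp. Neighbouring gene records were not left out of these lengths. Over the 13 of them with a peak in either library, 9 were lower and 4 higher in the knockdown (77.0% of all such genes were lower). Their median log2 ratio was −0.07 (−0.16 over all genes). A layout with few marked starts was not particular to endothelial genes. Of 20 leukocyte and platelet genes, 3 were marked at the start in both libraries, 9 away from the start only and 5 had no peak in the locus.

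Genes of the SWI/SNF complexes showed the reverse layout, with all 17 marked at the start in both libraries (61.7% of all genes were). Of these, 13 had less covered length in the knockdown and 4 more (77.0% of all genes with a peak in either library had less). Their median log2 ratio was −0.13 (−0.16 over all genes). Leukocyte and platelet genes were acetylated away from the start only for 9 of 20, among them PTPRC. Genes marked at the start in 1 library included CD8A (1235 bp in control cells and 0 bp in knockdown cells) and CSF1R (2127 and 1714 bp) in the control and CD4 (4280 and 3591 bp) in the knockdown. Of epithelial genes, EPCAM (4645 and 3997 bp) and CLDN3 (781 and 0 bp) were marked at the start in the control only. Of mesenchymal genes, COL1A2 (3996 and 2711 bp) and CSPG4 (21713 and 14979 bp) were so in the control and TWIST2 (4155 and 5415 bp) in the knockdown.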
